A study of Mus musculus with 11 samples.

Results

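Caveolae and fenestral diaphragms are built from a small set of proteins, and 8 of their genes were followed here in retinal endothelial cells: *Cav1*, *Cav2*, *Cavin1*, *Cavin2*, *Cavin3*, *Ehd2*, *Pacsin2* and *Plvap*. They were chosen by name, matched by symbol in the GENCODE mouse annotation to the Ensembl identifiers of the count files, and all 8 were found among the 55359 genes counted. All 8 also passed the filter on low counts that left 17050 genes for testing.

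The cells were sorted as CD31-positive and CD45-negative from retinas of C57BL/6 mice in the oxygen-induced retinopathy (OIR) model, in which pups breathe high oxygen, lose retinal capillaries and then grow pathological vessels in room air. All 11 mice went through OIR, received an intravitreal injection at postnatal day 12 (P12) and gave cells at P17. The 5 OSM mice (mice 1, 2, 5, 6 and 9) received 0.5 µL of oncostatin M (OSM), a cytokine of the interleukin 6 family, at 100 ng/µL, a dose of 50 ng, and the 6 PBS mice (mice 3, 4, 7, 8, 10 and 11) received 0.5 µL of PBS. The retinas of a mouse were pooled, so that each sample is 1 mouse. Mice 1 to 4, 5 to 8 and 9 to 11 formed 3 litters, each with its own OIR run, so that litter and run cannot be told apart, and litter 3 held 1 OSM mouse. The methods of the study describe PBS injections into contralateral eyes without saying whether both eyes of a sequenced mouse were treated alike, and the treatment of the label was used. The count columns of PBS mice 10 and 11 are headed as mice 11 and 12, and the mouse recorded for each file was used, which leaves group and litter as they are. No mouse without OIR and no uninjected mouse is part of the comparison, so the levels below describe OIR endothelium only.

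A caveola is a flask-shaped pit of the plasma membrane. Caveolins insert into its inner leaflet, cavins coat it from the cytosol, F-BAR proteins such as pacsins bend the membrane, and the ATPase EHD2 sits at the neck and holds the pit at the surface. PLVAP forms the diaphragm that spans fenestrae and the openings of endothelial caveolae. Barrier endothelium of brain and retina is known for few caveolae and little PLVAP, and PLVAP appears in retinal vessels when the barrier opens or when new vessels form.

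Total counts ran from 26697990 to 56033479 reads per mouse (median 32500202). PBS mouse 3 stood apart in having reads on 20898 genes, against 16635 to 17697 in the other 10 mice, and the deepest library was OSM mouse 9. The endothelial identity of the sorted cells was checked on *Pecam1*, which encodes CD31 and was used for the sort, and on *Cdh5*, the VE-cadherin gene. Levels per length are given as RPKM, reads scaled to the library and to the merged exons of the gene. *Pecam1* was at 133 ± 26.5 and *Cdh5* at 90.4 ± 10.7 RPKM (SD, n = 11), beside a mean of 104 for *Cav1*, the highest member. Of 10 leukocyte markers, 6 had enough reads for testing, *Ptprc*, the CD45 gene, had 0 to 22 reads per mouse, and the summed level of the list was 1.00 to 15.9 CPM (counts scaled to the library) in OSM mice and 0.444 to 81.9 in PBS mice. Because the samples are bulk RNA, fewer cells of a type and less RNA per cell cannot be told apart in any value below.

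*Cav1* and *Cav2* are neighbours, and the sequences in front of them are shown because these genes varied together between mice, as described below. In GRCm39, *Cav2* (ENSMUSG00000000058) spans chr6:17281026-17289877 and *Cav1* (ENSMUSG00000007655) spans chr6:17306140-17341451, both on the plus strand, with 16262 bp between them. RefSeq promoter windows, which are the 250 bases before an annotated start in GRCm38.p6, were found for 6 of the 8 members, the exceptions being *Cavin3* and *Plvap*. The plus strand is printed 5′ to 3′, from chr6:17306085-17306334 for the first *Cav1* start and from chr6:17280935-17281184 for *Cav2*. Capitals mark a GC box (GGGCGG) and TATA letters (TATAAA) in the *Cav1* window, each read there on the other strand, and a CCAAT box and a GC box in the *Cav2* window.
Cav1 promoter window: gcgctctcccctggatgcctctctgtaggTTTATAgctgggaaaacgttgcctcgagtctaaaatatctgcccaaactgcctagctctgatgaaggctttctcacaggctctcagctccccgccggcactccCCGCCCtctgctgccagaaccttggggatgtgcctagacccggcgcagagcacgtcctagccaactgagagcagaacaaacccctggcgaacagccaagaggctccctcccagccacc
Cav2 promoter window: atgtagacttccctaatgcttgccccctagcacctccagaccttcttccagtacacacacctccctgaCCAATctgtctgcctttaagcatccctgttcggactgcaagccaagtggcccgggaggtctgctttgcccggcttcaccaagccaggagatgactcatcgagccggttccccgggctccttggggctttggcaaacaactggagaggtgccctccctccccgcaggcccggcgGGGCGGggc
The GC box began 118 bases before the *Cav1* start and 9 bases before the *Cav2* start in the printed windows. The window of a second *Cav1* start, chr6:17307390-17307639, held no GC box, CCAAT box or TATAAA. On either strand, GGGCGG was held by 32.7% of 32851 RefSeq windows of this length, CCAAT by 33.8% and TATAAA by 12.4%. The ETS core CCGGAA, which 12% of windows held, was in none of the windows of the 6 members, and neither was the STAT motif TTCNNNGAA, which 7.02% held. OSM signals through STAT factors, and the missing match says only that these letters are not in these windows.

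The members were abundant transcripts of the sorted cells, and their levels per length fell into 4 tiers. *Cav1*, which encodes the caveolin that endothelial cells need to form caveolae, was the highest at 104 ± 26.2 RPKM (SD, n = 11), with a range of 68.6 to 156. *Cavin3*, whose product binds CAVIN1 within the coat, was at 89.7 ± 9.22, and *Cavin1*, the essential coat component, was at 82.6 ± 13.0. These 3 genes could not be ordered on the exon lengths used: *Cav1* exceeded *Cavin3* in 7 of 11 mice (adjusted p = 0.288, exact sign-flip permutation, 7 neighbouring pairs) and *Cavin3* exceeded *Cavin1* in 7 of 11 (adjusted p = 0.195, exact permutation). *Cav2*, the partner caveolin that CAV1 carries to the surface, was below *Cavin1* in 11 of 11 mice at 53.5 ± 12.6 (adjusted p = 0.00342, exact permutation). *Ehd2*, the neck ATPase, was at 32.9 ± 5.98, *Plvap* at 32.5 ± 14.5 and *Cavin2*, a cavin that shapes the coat, at 32.3 ± 10.7. *Ehd2* was below *Cav2* in 10 of 11 mice (adjusted p = 0.00456, exact permutation), whereas *Ehd2* and *Plvap* (adjusted p = 0.672, exact permutation) and *Plvap* and *Cavin2* (adjusted p = 0.813, exact permutation) did not differ beyond their spread. *Pacsin2*, the F-BAR member, was the lowest at 9.64 ± 2.53, under *Cavin2* in 11 of 11 mice (adjusted p = 0.00342, exact permutation).

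Set among the 13341 protein-coding genes tested, *Cav1* ranked 290th and *Pacsin2* 3533rd in level per length, and the other 6 members ranked from 349th to 1148th. For scale, *Cldn5*, the main claudin of the retinal barrier, was at 3317 ± 413 RPKM (SD, n = 11) and *Gapdh* at 99.9 ± 14.5. The order rests in part on the length that is divided out. For *Plvap* that length includes 834 bp shared with the opposite-strand gene *Gtpbp3*, where reads cannot be assigned. The level of *Plvap* may therefore be understated. With the longest transcript in place of all merged exons, *Pacsin2* moved from 9.64 to 24.6, since its 42 annotated transcripts merge to 9487 bp of exon and the longest has 3722 bp. On that scale *Cavin1* (126) exceeded *Cavin3* (107) in 9 of 11 mice (adjusted p = 0.0314, exact permutation), *Cav1* (172) exceeded *Cavin1* in 10 of 11 (adjusted p = 0.00456, exact permutation), and *Pacsin2* stayed the lowest. The plot of levels per length shows the tiers in both treatment groups, apart from the place of *Plvap*. In PBS mice *Plvap* was at 40.2 RPKM, above *Ehd2* (31.9) and *Cavin2* (32.9). In OSM mice it was at 23.3, below *Ehd2* (34.1) and *Cavin2* (31.6).

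**Figure D1:**
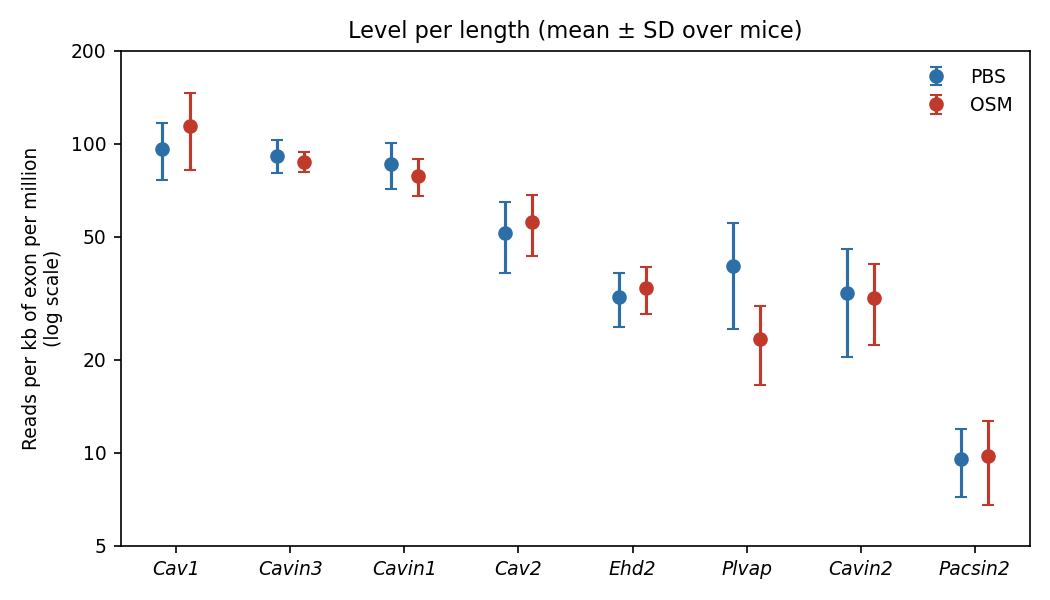
Level per length of the 8 members (RPKM, on merged exons, log axis) as mean ± SD over 6 PBS mice (blue) and 5 OSM mice (red), in the order of the mean over 11 mice. *Cav1*, *Cavin3* and *Cavin1* sit near 100, *Pacsin2* near 10, and *Plvap* has the widest gap between the groups.

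The comparison of OSM with PBS asks whether the injection at P12 left a difference in these genes at P17. *Plvap* was the member with the largest difference, with a mean of 3043 ± 872 normalized read counts in OSM mice (SD, n = 5) against 5263 ± 1974 in PBS mice (SD, n = 6). The 7 caveola genes had log2 fold changes between -0.17 and 0.16. No member passed an adjusted p of 0.05 in edgeR's quasi-likelihood test with litter as a term, nor did any of the 17050 genes (percent called: 0), although 846 genes had an unadjusted p under 0.05 and DESeq2's Wald test called 168 genes, no member among them. At the unadjusted level 1 of 8 members, *Plvap*, passed, against 4.96% of all genes tested. It was lower in OSM, as were 2.71% of genes at that level, and 0 members were higher, against 2.25%. Of the members 3 were higher and 5 lower in OSM, their median log2 fold change being -0.05 and its median size 0.10, beside -0.01 and 0.30 over all genes tested. The 2 sizes are not like for like. All genes tested include weakly counted ones, with log2 fold changes from -9.96 to 8.67, whereas every member had at least 1947 reads in each mouse.

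Of the caveolins, *Cav1* had normalized read counts of 26566, 18810, 21553, 18302 and 11662 in OSM mice 1, 2, 5, 6 and 9. The PBS mice ran from 13737 to 20809 with a median of 14599. The highest and the lowest *Cav1* count of all mice were both OSM mice, and the groups overlapped. The log2 fold change was 0.16 (SE 0.13, 95% interval -0.12 to 0.44, edgeR adjusted p = 1). Within litters the difference in mean log2 CPM was 0.11, 0.46 and -0.26 in litters 1, 2 and 3, so that it turned sign in the litter with a single OSM mouse.

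*Cav2* resembled *Cav1* mouse by mouse. Its OSM counts were 9894, 8421, 8099, 9338 and 5170 in mice 1, 2, 5, 6 and 9, and its PBS counts ran from 5096 to 11087 with a median of 7110. OSM mouse 9, the lowest OSM mouse for *Cav1*, was also the lowest for *Cav2*. The log2 fold change was 0.07 (SE 0.17, 95% interval -0.30 to 0.45, edgeR adjusted p = 1), with within-litter differences of -0.03, 0.55 and -0.46. A treatment by litter interaction had an unadjusted p of 0.0366 for *Cav2* in the edgeR fit (adjusted p = 0.757), and this was 1 of 8 members, against 6.42% of all genes tested.

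Of the cavins, *Cavin1* had the largest difference and *Cavin3* the smallest. *Cavin1* had OSM counts of 16171, 16478, 13148, 12264 and 13060 in mice 1, 2, 5, 6 and 9, and PBS counts of 11004 to 18119 with a median of 16572. Of the PBS mice, 3 exceeded every OSM mouse and 1 was below all of them. The log2 fold change was -0.17 (SE 0.09, 95% interval -0.37 to 0.03, edgeR unadjusted p = 0.0876, adjusted p = 0.955). *Cavin2* ran from 4363 to 9630 counts in OSM and from 4598 to 11817 in PBS, with a log2 fold change of -0.12 (SE 0.15). *Cavin3* varied least between mice, by 10.3% of its mean (CV), with 8448 to 10175 counts in OSM, 8589 to 11640 in PBS and a log2 fold change of -0.06 (SE 0.09). For none of the cavins did the 3 litters share a sign.

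The membrane-shaping genes did not separate the groups. *Ehd2* had 5671 to 9137 counts in OSM mice and 5604 to 8523 in PBS mice, and *Pacsin2* 2226 to 4424 and 2033 to 3794. Their log2 fold changes were 0.08 (SE 0.16, 95% interval -0.26 to 0.42) and -0.04 (SE 0.19, 95% interval -0.45 to 0.37), both with an edgeR adjusted p of 1. The intervals of the 7 caveola genes reached at most 0.45 in size.

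**Figure D2:**
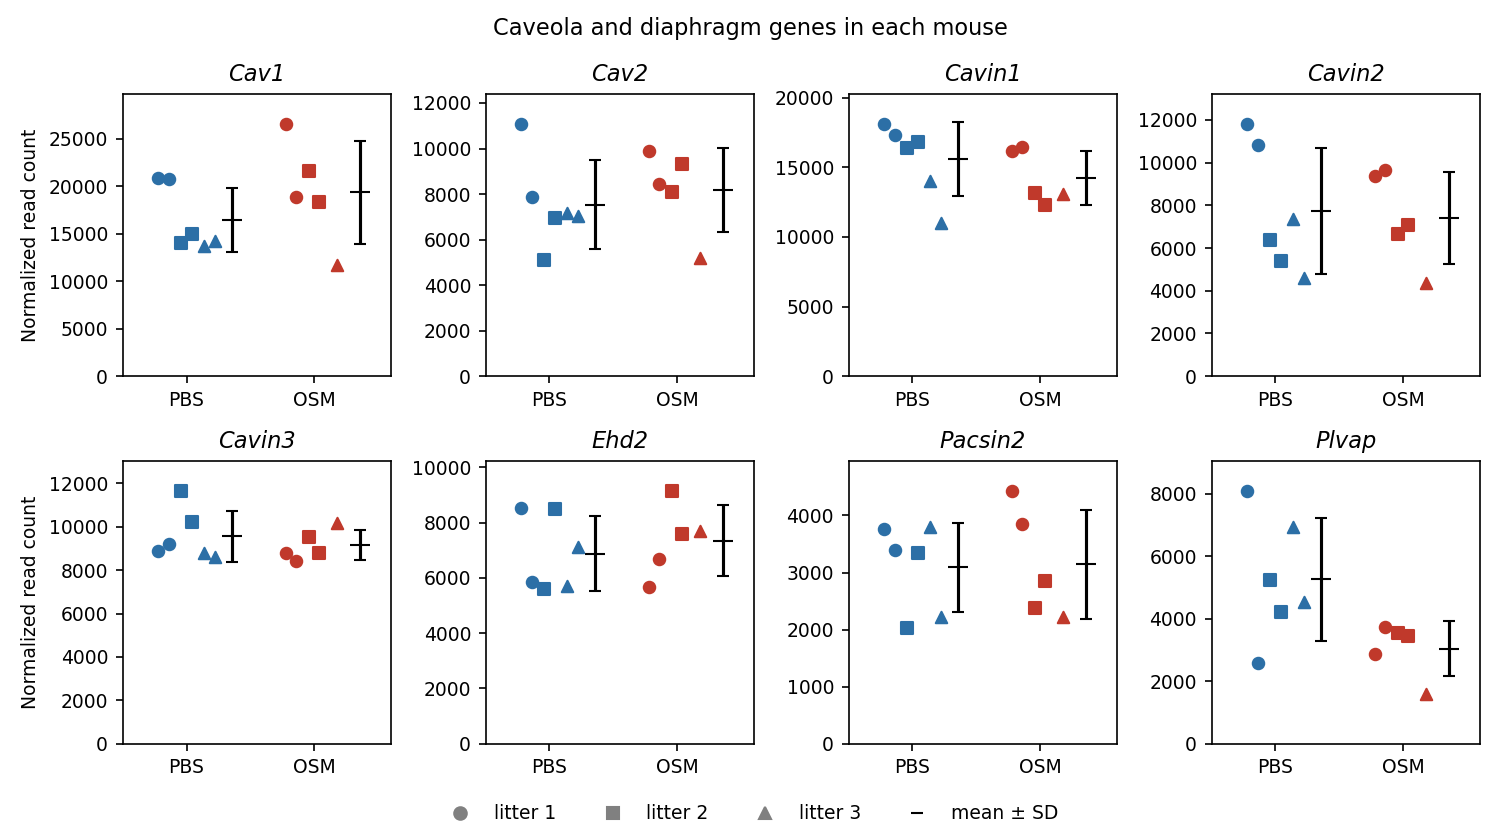
Normalized read count (TMM) of each member in each mouse, PBS in blue and OSM in red, with circles for litter 1, squares for litter 2, triangles for litter 3 and the mean ± SD beside each group. Only in the *Plvap* panel do most PBS mice, 5 of 6, lie above every OSM mouse. For *Cav1*, *Cav2*, *Cavin1* and *Cavin2* litter 1 lies above litter 3 in both groups.

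*Plvap* (ENSMUSG00000034845, chr8:71948674-71964506 in GRCm39, minus strand) had 2885, 3734, 3549, 3458 and 1591 normalized read counts in OSM mice 1, 2, 5, 6 and 9. PBS mice 3, 4, 7, 8, 10 and 11 had 8077, 2580, 5238, 4218, 6922 and 4544. Thus 5 of 6 PBS mice lay above every OSM mouse, PBS mouse 4 lay within the OSM range, and OSM mouse 9 lay below all others. Complete separation of the groups was found for 0 of 8 members and for 0.405% of all genes tested.

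The log2 fold change of *Plvap* was -0.85 (SE 0.31, 95% interval -1.54 to -0.16), a level in OSM of 0.555 times that in PBS, with an edgeR unadjusted p of 0.0205 and an adjusted p of 0.955. *Plvap* held place 273 of 17050 by p. Its difference in mean log2 CPM was -0.48, -0.42 and -1.82 in litters 1, 2 and 3, and it was the 1 member of 8 whose litters shared a sign, against 24.1% of all genes tested. The interaction of treatment and litter had an unadjusted p of 0.178 in the edgeR fit (adjusted p = 0.798). The size of the difference depended on single mice: it was -0.56 without OSM mouse 9, the only OSM mouse of its litter (edgeR unadjusted p = 0.0885), -0.56 without litter 3 (unadjusted p = 0.0928), -0.58 without PBS mouse 3 (unadjusted p = 0.108), and -1.06 without PBS mouse 4 (unadjusted p = 0.00166). Without the filter on low counts *Plvap* was called, with an edgeR adjusted p of 0.000285 at a log2 fold change of -0.85, and so were 65 genes in all, while DESeq2 gave an adjusted p of 0.274. The fit without the filter treated the spread between mice as known exactly, so its p-values are not comparable with the others.

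Some reads of the *Plvap* locus cannot be assigned. The opposite-strand gene *Gtpbp3* shares 834 bp of exon with *Plvap*, and the library kit used does not mark strand. *Gtpbp3* had 6921 reads over all mice against 44426 for *Plvap*, and a log2 fold change of 0.05 (SE 0.38). The other members shared their loci only with genes of at most 96 reads over all mice.

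**Figure D3:**
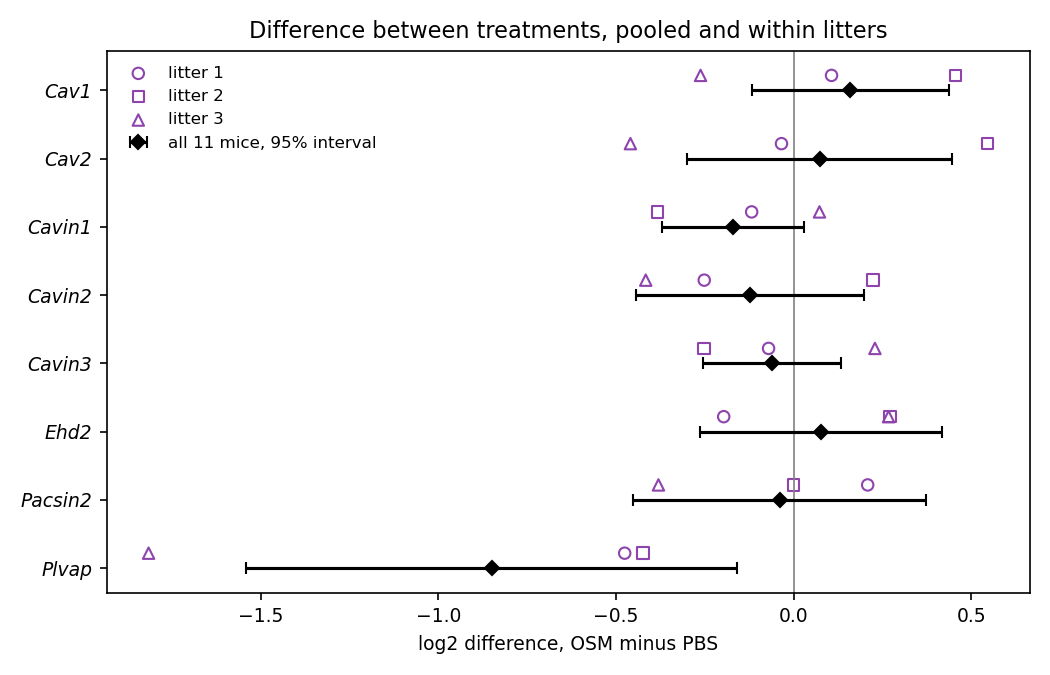
Log2 difference, OSM minus PBS, for each member: black diamonds and bars give the edgeR log2 fold change and its 95% interval over 11 mice with litter as a term, and open symbols the difference of mean log2 CPM within litter 1 (circle), litter 2 (square) and litter 3 (triangle). The interval of *Plvap*, -1.54 to -0.16, is the only one that leaves out 0, and *Plvap* is the only member with 3 litters on the same side.

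Markers of other cells were counted beside *Plvap*, and 0 of them passed the adjusted threshold. Of all 17050 genes tested, 8795 were lower in OSM and 4.96% had an unadjusted p under 0.05. All 12 mural cell markers tested were lower in OSM (median log2 fold change -0.69), 1 of them, *Pdgfrb*, the PDGF receptor of pericytes, at an unadjusted p under 0.05 (-0.55, edgeR unadjusted p = 0.0419) and 0 called. Within litter 2, however, most of these mural markers were higher in OSM. Markers of the same cells are not separate observations. Their summed level was 622 to 1145 CPM in OSM mice and 423 to 2260 in PBS mice. By mouse, the mural sum was 630, 622, 964, 1145 and 630 CPM in OSM mice 1, 2, 5, 6 and 9, and 1053, 1087, 1745, 423, 1318 and 2260 CPM in PBS mice 3, 4, 7, 8, 10 and 11. In *Plvap*, PBS mice 3, 7, 8, 10 and 11 were above every OSM mouse, and PBS mouse 4 was not. Of 10 proliferation markers 9 were lower in OSM, with a median of -0.48. Both with an unadjusted p under 0.05 encode dividing-cell proteins, *Mki67* at -1.06 (edgeR unadjusted p = 0.0410) and the helicase subunit gene *Mcm5* at -0.39 (edgeR unadjusted p = 0.0227). The summed proliferation level was 258 to 467 CPM in OSM and 399 to 633 in PBS. Within litter 2 some proliferation markers were higher in OSM and some lower. Erythrocyte and platelet markers went the other way, with 7 of 8 higher, 5 of them (*Hbb-bs*, *Hbb-bt*, *Hba-a1*, *Hba-a2* and *Alas2*) at an unadjusted p under 0.05, 0 called, and a summed level of 369 to 1142 CPM in OSM and 127 to 614 in PBS. The part of these cells in the *Plvap* difference was not tested.

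Rod photoreceptor markers were at 198 to 5449 CPM in OSM mice, with the highest value in OSM mouse 5, and at 358 to 1492 in PBS mice, with 7 of 10 higher in OSM. Müller glia markers were at 445 to 871 and 379 to 675, with 3 higher and 6 lower of 9 tested. Of 10 markers of pigment epithelium and melanocytes 4 were tested, 1 higher and 3 lower, *Rgr* and *Lrat* had 0 reads in every mouse, and the sum was 4.40 to 41.6 in OSM mice and 7.70 to 51.3 in PBS mice. The 6 leukocyte markers tested were 1 higher and 5 lower, and the 10 endothelial markers 6 higher and 4 lower. None of the rod, Müller, leukocyte, pigment or endothelial lists held a gene with an unadjusted p under 0.05. Endothelial markers summed to 12964 to 16732 CPM in OSM mice and 12699 to 15601 in PBS mice (median log2 fold change 0.02).

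Ratios of genes within a mouse do not depend on how libraries are scaled. *Plvap*, a gene of leaky endothelium, was set against *Cldn5*, a gene of tight endothelium: the log2 ratio was -5.81, -5.44, -5.62, -5.46 and -6.94 in OSM mice 1, 2, 5, 6 and 9, and ran from -5.63 to -4.30 with a median of -4.96 in PBS mice. The groups overlapped. With litter means removed the difference, OSM minus PBS, was -0.95, with a p of 0.0370 in the exact two-sided permutation over all splits that keep each litter's treatment numbers, and an adjusted p of 0.111 over 3 ratios. Its differences within litters were -0.66, -0.35 and -2.28. Without OSM mouse 9 it was -0.51 (p = 0.222, exact permutation).

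The ratios inside the caveola differed less. *Cav2* to *Cav1* differed by -0.07 (p = 0.602, exact permutation) and *Cavin1* to *Cav1* by -0.32 (p = 0.167, exact permutation; adjusted p = 0.25). The *Cavin1* to *Cav1* ratio was lower in OSM in litters 1 and 2 (-0.22 and -0.84) and higher in litter 3 (0.33). The smallest p this design allows is 0.00926.

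**Figure D4:**
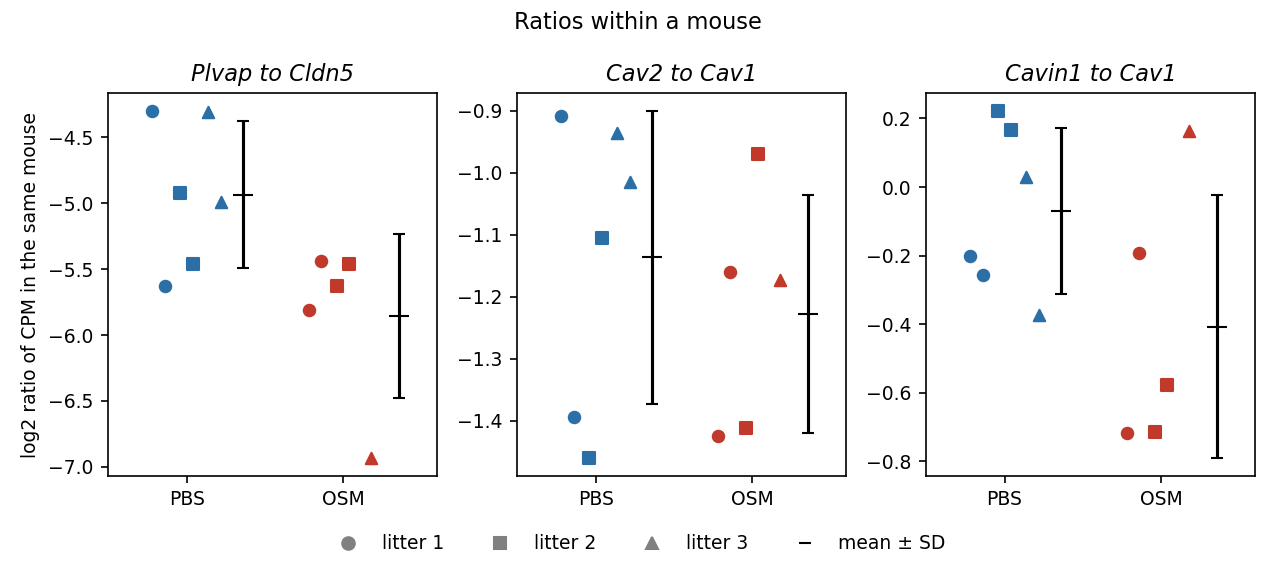
Log2 ratio of CPM within each mouse for *Plvap* to *Cldn5*, *Cav2* to *Cav1* and *Cavin1* to *Cav1*, PBS in blue and OSM in red, with symbols for litters 1 (circle), 2 (square) and 3 (triangle) and the mean ± SD of each group. OSM mouse 9 has the lowest *Plvap* to *Cldn5* ratio, -6.94, and the *Cav2* to *Cav1* ratios of the groups lie in the same range.

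In several caveola genes the litter means lay far apart, though none passed the adjusted threshold. *Cavin2* had means of 10410, 6370 and 5446 normalized read counts in litters 1, 2 and 3 (edgeR unadjusted p = 0.000508, adjusted p = 0.103). *Cav1* had means of 21723, 17210 and 13212 (unadjusted p = 0.00426, adjusted p = 0.204), and *Cavin1* of 17023, 14639 and 12691 (unadjusted p = 0.00855, adjusted p = 0.259). All 4 mice of litter 1 exceeded all 3 mice of litter 3 in each of these genes. These 3 of 8 members had an unadjusted litter p under 0.05, against 10.3% of all genes tested, and 0 passed the adjusted threshold, which 0.0176% of genes did. *Plvap*, in contrast, had litter means of 4319, 4116 and 4352 (edgeR unadjusted p = 0.813), so that its spread, the largest of the members at 44.6% of its mean (CV), lay within litters.

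*Cav1* and *Cav2* varied together between mice. Over the 11 mice their log2 CPM had a Pearson r of 0.82 (permutation p = 0.00167, adjusted p = 0.0468 over 28 pairs) and a Spearman rho of 0.79 (permutation p = 0.0056, adjusted p = 0.101). These permutations shuffled mice across litters, so differences between litters enter the p-values. The r was 0.73 without OSM mice 1 and 9, the farthest from the *Cav1* median, and 0.70 after litter and treatment means were removed, and the adjusted p no longer passed in either case (0.339 and 0.208, permutation). This was the only pair of 28 past the threshold, and 7 pairs had an unadjusted p under 0.05. No r is given within a litter, since the litters held 3 or 4 mice, too few for a usable value.

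*Cavin2* joined them on the raw scale, with r = 0.76 to *Cav1* and 0.72 to *Cav2* (adjusted p = 0.0738 for both, permutation), and these fell to 0.35 and 0.48 once litter and treatment means were removed. *Cavin1* changed sides: its r to *Cav1* was 0.38 over all mice and -0.57 after the removal, and to *Cav2* 0.23 and -0.54. *Cav2* and *Cavin3* had r = -0.73 over all mice (adjusted p = 0.0738, permutation), -0.87 after the removal (adjusted p = 0.0160, permutation) and -0.32 without PBS mouse 7 and OSM mouse 9. The permutation after the removal shuffled the remaining values over all mice, with no allowance for the litter and treatment means already fitted. Its p-values therefore run too small, and the 0.0160 is not read as a pass. *Plvap* had r between -0.12 and 0.29 to the 7 other members, with 0 of 7 pairs past an unadjusted p of 0.05. After the removal its r was 0.60 to *Cav2* (adjusted p = 0.274, permutation), 0.58 to *Cavin2* (adjusted p = 0.274, permutation) and -0.51 to *Cavin3* (adjusted p = 0.312, permutation), and between -0.11 and 0.38 to the others.

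**Figure D5:**
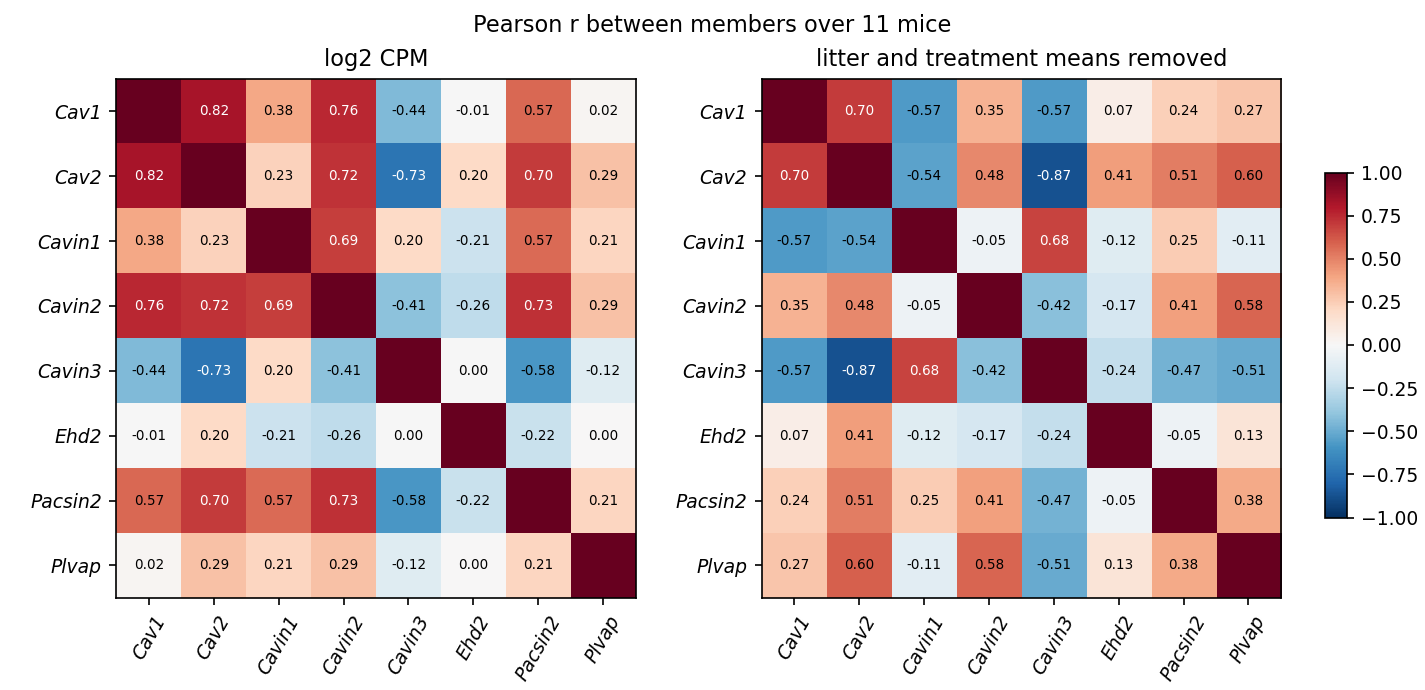
Pearson r between members over 11 mice, from log2 CPM (left) and after litter and treatment means were removed (right), with color from -1 (blue) to 1 (red). *Cav1* and *Cav2* stay at 0.82 and 0.70, whereas the pairs of *Cavin1* with the caveolins go from 0.38 and 0.23 to -0.57 and -0.54.

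The genes most like each member were taken by Pearson r over 11 mice with litter means removed, among 10911 genes with a mean of at least 100 normalized counts. They were *Lamtor3* (0.91), *Atmin* (0.89) and *Hs6st1* (0.88) for *Cav1*, and *Cldnd1* (0.96), *Nqo1* (0.95) and *B4galt1* (0.95) for *Cav2*. For the cavins they were *Pex6* (0.97), *Man2c1* (0.97) and *Pask* (0.96) for *Cavin1*, *Tagln2* (0.93), *Zmat3* (0.92) and *Prss23* (0.92) for *Cavin2*, and *Pfn1* (0.95), *Bckdhb* (0.94) and *Eif6* (0.93) for *Cavin3*. *Ehd2* was most like *Myo10* (0.95), *Hnrnpf* (0.94) and *C330011M18Rik* (0.94), and *Pacsin2* most like *Tcf7* (0.94), *Tgm2* (0.93) and *Hps1* (0.92). *Plvap* was most like *Inpp4b* (0.96), *Hdac4* (0.92) and *Cdca7* (0.90), whose log2 fold changes were -0.98, -0.56 and -0.44. Treatment means were left in, so genes picked for likeness to *Plvap* tend to share its sign, and these fold changes are no separate result. No member was among the 3 genes most like another member, and *Cav2* had r = 0.70 to *Cav1* on this scale. The listed r are the highest of 10911 values over 11 mice, so they are large in part by selection, and they were not tested.

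The genes that work beside the members were counted in 4 lists. For comparison, 8255 of all 17050 genes tested were higher in OSM, and 4.96% had an unadjusted p under 0.05. Of 17 caveola and raft partners 15 were tested, 5 higher and 10 lower in OSM (median log2 fold change -0.10), and 0 were called. *Ehd1*, a paralog of *Ehd2* that acts in endocytic recycling, was at -0.23 (SE 0.10, edgeR unadjusted p = 0.0479). The muscle members of the families were nearly absent, with 0 to 2 reads per mouse for *Cav3* and 0 to 35 for *Cavin4*. *Mfsd2a*, the lipid transporter that restrains caveolae in barrier endothelium, was the highest of the list at 231 RPKM, with a log2 fold change of 0.09 (SE 0.15), followed by *Nos3*, the endothelial nitric oxide synthase that CAV1 binds, at 91.3 and -0.06 (SE 0.14). *Mfsd2a* thus exceeded *Cav1* in mean level per length.

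Clathrin-mediated uptake, the other main route into the cell, stood at 6 higher and 6 lower of 12 genes, with a median of 0.00 and none at an unadjusted p under 0.05. Its highest genes were *Cltc*, the clathrin heavy chain, at 53.4 and *Ap2s1*, an adaptor subunit, at 51.6 RPKM. Of the 12 genes of the beta-catenin barrier program, which holds retinal vessels tight, 9 were higher and 3 lower, with a median of 0.11 and 0 called. *Apcdd1*, an inhibitor and target of Wnt signaling, was at 0.28 (SE 0.11, edgeR unadjusted p = 0.0275), and *Cldn5* and *Slc2a1*, the glucose transporter at 833 RPKM, had 0.16 (SE 0.10) and 0.08 (SE 0.08). The 3 lower genes were *Axin2* at -0.67 (SE 0.91), *Abcb1a* at -0.11 (SE 0.12) and *Tspan12* at -0.08 (SE 0.12). Of 10 genes linked to VEGF, a known inducer of fenestrae, 4 were higher and 6 lower, with a median of -0.06 and none at an unadjusted p under 0.05, and the highest were the transcription factor *Sox18* at 423 and the VEGF receptor *Kdr* at 218 RPKM.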

How the data were processed

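Endothelial RNA of 11 mice, 5 OSM and 6 PBS, was sequenced from cDNA primed on poly(A) tails and amplified by PCR. Per the labels, the submitters' processing notes name STAR, featureCounts and GRCm39. The deposited counts are whole numbers of reads per gene that the authors did not normalize, for 55359 genes in each mouse. GENCODE vM39, used for symbols and positions, held 54749 of them and lacked 610. No libraries were copies of each other. The chi-square per gene was at least 67.6 between any pair. Reads carry no molecular identifiers, so precision was taken from the spread between mice.

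Counts were tested with edgeR 4.0.16 (R 4.3.3), with genes kept by filterByExpr at a count minimum of 10, TMM factors, a robust quasi-likelihood fit with litter and treatment, and Benjamini-Hochberg adjustment over 17050 genes at 0.05. The groups share no mouse number, so litter was the only block. Normalized counts are CPM, scaled by library size, rescaled to the mean library. Values within litters, ratios and correlations used log2 CPM with a prior count of 2. Levels per length used merged exons. Ratios were tested by exact permutation within litters, neighbouring levels by exact sign flips, and correlations with 100000 permutations. The permutations of correlations shuffled mice across litters, also after litter and treatment means were removed. The scripts were tested on simulated data.

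The text names all members, of each other list the genes with an unadjusted p under 0.05 and, of the 4 pathway lists, its 2 highest per length, and the 3 genes most like each member. The highest genes of the marker lists are left out for brevity, apart from endothelial references. *Gtpbp3*, *Rgr*, *Lrat*, *Ptprc* and the reference genes were named for what they check. *Axin2*, *Abcb1a* and *Tspan12* were named to show both directions in the beta-catenin list. Members, lists and tests were chosen with earlier results of these data known, and motifs after the values were seen. Alternatives were no litter term, other normalizations and filters, DESeq2 1.42.0 with and without litter, no robust estimation, thinning to the smallest library, leaving out each mouse or litter, another gene length, a prior count of 0.5, and correlations without litter and treatment means or without the extreme mice.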

Additional observations from a re-analysis of the deposited data

Results flagged for a closer look

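Of 22 sets of values tested for a mouse far from its group (8 members and 3 ratios in each treatment group), 1 was singled out: the log2 ratio of *Plvap* to *Cldn5* in OSM mouse 9, at -6.94. The gap to the next OSM mouse was 0.755 of the range of the group, above Dixon's 95% critical value for 5 mice. Chance singles out about 1 in 20 such groups. OSM mouse 9 was the only OSM mouse of litter 3 and the deepest library.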

How the results depend on the processing

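No gene was called in the comparison reported. The count rose to 65 without a filter on low counts, 168 with DESeq2 and 88 with DESeq2 without litter, and stayed at 0 in the other alternatives, mice left out included. Without the filter the interaction called 305 genes and litter 625, against 0 and 3, and *Cav1* (adjusted p = 0.00147) and *Cavin2* (1.46e-06) were then called for litter in edgeR. The fit without the filter treated the spread between mice as known exactly. For *Cavin1* the edgeR litter F fell from 7.64 to 4.77, yet its unadjusted p was 0.0085 in both fits. The p-values and counts of the 2 fits are therefore not comparable. Why the fit took this form was not tested. *Plvap* kept its sign in 23 of 23 alternatives, from -1.13 to -0.56, with an unadjusted p under 0.05 in 20 and adjusted p between 0.000285 and 1. The fit without the filter is among these 20 and gave the lowest adjusted p. The signs of the small differences did not hold: *Pacsin2* was at 0.027 without a litter term, 0.021 with DESeq2 without litter and 0.083 without litter 3, and without litter 2 *Cav1* was at -0.030, *Cav2* at -0.22, *Cavin3* at 0.047 and *Ehd2* at -0.027. Leaving out 1 mouse gave 0.08 to 0.29 for *Cav1*, -0.059 to 0.24 for *Cav2*, -0.023 to 0.20 for *Ehd2* and -0.13 to 0.083 for *Pacsin2*. *Cavin1* passed an unadjusted p of 0.05 without OSM mouse 9 (-0.25), PBS mouse 11 (-0.22) or litter 3 (-0.25), and *Cav1* without OSM mouse 9 (0.29). Leaving out 1 mouse moved the *Plvap* to *Cldn5* ratio between -1.18 and -0.51, *Cav2* to *Cav1* between -0.15 and 0.012 and *Cavin1* to *Cav1* between -0.53 and -0.22. With the longest transcript as length, *Cav1* was at 172, *Cavin1* at 126, *Cavin3* at 107, *Ehd2* at 39.3 and *Pacsin2* at 24.6 RPKM. Without the 2 mice farthest from the median, 0 pairs passed, and r was 0.45 for *Cav1* and *Ehd2*, -0.37 for *Cav1* and *Plvap*, -0.12 for *Cavin1* and *Cavin3*, -0.54 for *Cavin2* and *Plvap*, and 0.38 for *Cavin3* and *Ehd2*. With litter and treatment means removed, r was -0.57 for *Cav1* and *Cavin1*, 0.066 for *Cav1* and *Ehd2*, -0.54 for *Cav2* and *Cavin1*, -0.051 for *Cavin1* and *Cavin2*, and -0.11 for *Cavin1* and *Plvap*. No paired analysis was possible because the groups share no mouse numbers.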
